A study of Homo sapiens and Mus musculus with 12 samples.

Results

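The genes described here are 10 markers of epithelial cells: the simple-epithelium keratins KRT8, KRT18, KRT19 and KRT7, the basal and surface-epithelium keratins KRT5, KRT14 and KRT6A, the adhesion molecules EPCAM and CDH1, and the transcription factor GRHL2. They were chosen by symbol with earlier results of these data known, and were read from the deposited tables of read counts per gene. All 10 had a row among the 60675 human identifiers. In mouse, 9 orthologs were matched by gene description among 47729 identifiers, and Krt6a was not matched. The values that led to the choice are these same counts, so the members' levels and folds are given as a description.

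The 12 libraries came from cortical organoids, aggregates of stem cells grown toward forebrain tissue. The human organoids were grown from the established human embryonic stem cell line H9 and patterned with SB431542, Dorsomorphin, IWR-1-Endo and Cyclopamine, which WT and knockout organoids alike received. At week 4 (day 28), 3 pools of 5 to 10 organoids were taken from the line H9_WT_E2del19 (WT) and 3 from H9_KO_E5del42, labelled NOTCH2NL knockout (KO). The mouse organoids were grown from the established mouse embryonic stem cell line 46C, after Eiraku and Sasai. At day 6, 3 pools of 16 organoids were taken from a stable line carrying the empty vector control (EV) and 3 from a stable line overexpressing the NOTCH2NL-Sh_T197I cDNA (N2NL). Each genotype or vector was read in 1 line, so genotype and line cannot be told apart. The labels do not tie the pools of a group to separate differentiations, and p-values measure only the spread between pools.

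Keratins are the intermediate filament proteins of epithelia and assemble as obligate pairs of a type I and a type II chain. KRT8 (type II) and KRT18 (type I) form the first pair made in the embryo and mark simple epithelia such as trophoblast, while KRT5 with KRT14 marks the basal layer of stratified epithelia and KRT6A its activated or mucosal layers. EPCAM and E-cadherin (CDH1) hold epithelial cells together, GRHL2 activates CDH1 and other junction genes, and in the forming neural plate E-cadherin gives way to N-cadherin (CDH2).

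Library totals ran from 15381409 to 16382938 counts in human and from 16781742 to 20960391 in mouse. Levels are CPM, a gene's counts relative to its library's total, scaled by TMM factors. A gene at 0 counts in a human library could still stand at up to 0.195 CPM (3 counts, counting error only), and in a mouse library at up to 0.179 CPM. Neural markers were present throughout: the summed level of 10 neuroepithelium and radial glia genes was 2021 to 2532 CPM in human and 1018 to 1223 CPM in mouse. Pluripotency genes (10 listed, of which 10 were matched in mouse) summed to 12.8 to 30.3 CPM in human and 744 to 893 CPM in mouse. Some libraries stood apart for the genes described here: WT 1 and KO 3 in human, and the replicate 1 libraries of both groups in mouse.

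Human organoids held little epithelial keratin, and none of the members passed the test between KO and WT. KRT8 (ENSG00000170421, chr12:52897187-52949954, minus strand) was counted 73, 268 and 185 times in WT 1 to 3, and 160, 291 and 212 times in KO 1 to 3. WT 1 was the lowest of the 6 libraries and the groups overlapped. KRT18 (ENSG00000111057, chr12:52948871-52952901, plus strand), its type I partner, had 51, 123 and 86 counts in WT and 113, 126 and 99 in KO. WT 1 was again the lowest, and the other 5 libraries lay within 86 to 126 counts. In CPM, KRT8 stood at 11.1 ± 5.89 in WT and 13.9 ± 4.14 in KO, and KRT18 at 5.50 ± 2.10 and 7.14 ± 0.992 (SD, n = 3 each).

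The log2 fold of KO over WT was 0.33 ± 0.45 for KRT8 and 0.37 ± 0.28 for KRT18 (± SE; edgeR quasi-likelihood, adjusted p = 0.726 and 0.464). Without WT 1, these folds were -0.04 and 0.11, and without WT 2 they were 0.73 and 0.67. Fewer cells of a type and less RNA per cell cannot be told apart in pooled organoids.

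KRT19 (ENSG00000171345, chr17:41523617-41528308, minus strand), the small type I keratin of ductal and other simple epithelia, had 7, 12 and 8 counts in WT and 10, 8 and 28 in KO. KO 3 alone was high, and the other 5 libraries lay within 7 to 12 counts. The log2 fold was 0.74 ± 0.53 (edgeR, adjusted p = 0.444), and 0.01 ± 0.54 without KO 3. KRT7 (ENSG00000135480, chr12:52232520-52252186, plus strand), the type II keratin of glandular and trophoblast epithelia, had 2, 3 and 2 counts in WT and 1 in each KO library. Every KRT7 value was at or under 3 counts, so no fold is given.

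The adhesion genes differed from each other. EPCAM (ENSG00000119888, chr2:47345158-47387601, plus strand) had 131, 98 and 96 counts in WT and 93, 99 and 116 in KO, or 6.94 ± 1.35 and 6.48 ± 0.550 CPM (SD, n = 3). Its highest library, WT 1, was the lowest for KRT8 and KRT18, and the groups overlapped, with a log2 fold of -0.10 ± 0.20 (edgeR, adjusted p = 0.815). CDH1 (ENSG00000039068, chr16:68737225-68835548, plus strand) had 8, 14 and 14 counts in WT and 4, 3 and 8 in KO. In CPM that was 0.767 ± 0.218 in WT and 0.313 ± 0.156 in KO (SD, n = 3), and all WT libraries were above all KO libraries. The margin was narrow: WT 1 and KO 3, with 8 counts each, stood at 0.518 and 0.489 CPM. CDH1 was too low for the filter on low counts and was not tested. The authors' deposited table gives it a log2 fold of -0.36 and an adjusted p of 0.398 (model not given in the sources used here). Folds there were smaller in size than the edgeR folds for every tested human member, such as 0.15 against 0.33 for KRT8. They are therefore not on a like scale. GRHL2 (ENSG00000083307) had 0 counts in all 6 human libraries.

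**Figure D1:**
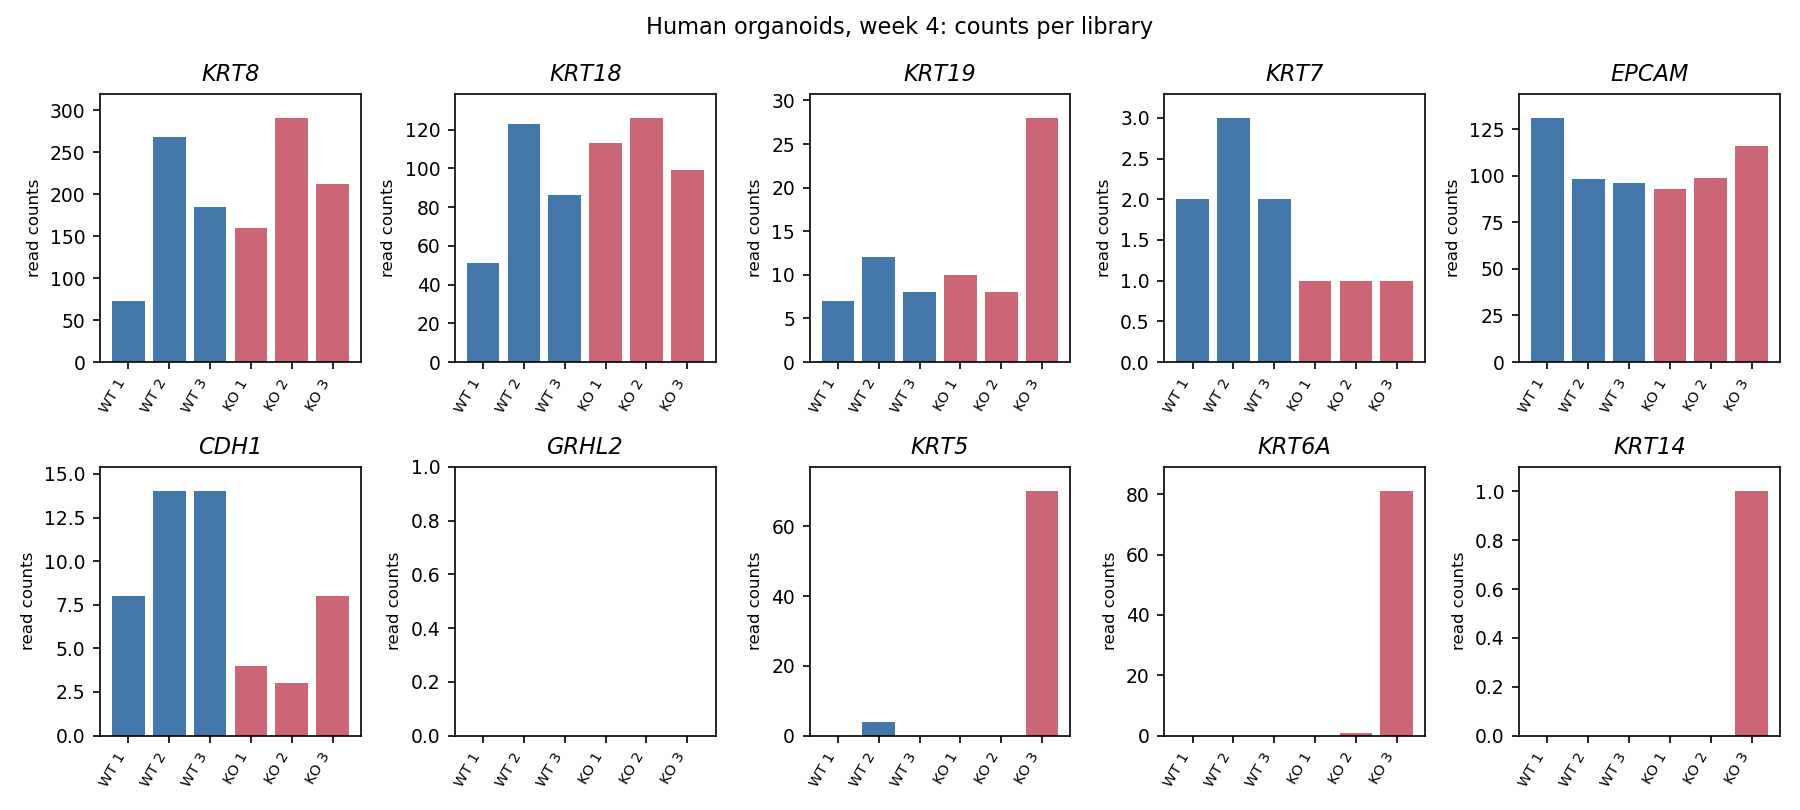
Read counts (y axis, linear, from 0) of the 10 members in each human library (x axis; blue WT, red KO, 1 bar per library). KRT8 and KRT18 are lowest in WT 1, KRT19, KRT5 and KRT6A are highest in KO 3 with 28, 70 and 81 counts, and GRHL2 has no bar because all 6 libraries were at 0.

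Of the 10 human members, 4 passed the filter on low counts (KRT8, KRT18, KRT19 and EPCAM), and 0 were called at an adjusted p under 0.05. In this comparison 5.5% of the 16956 tested genes were called by edgeR. At an unadjusted p under 0.05 the members' count was also 0, and DESeq2 called 0. KRT7 and CDH1, both untested, were the members with all KO libraries below all WT libraries in CPM, an arrangement that 14.8% of the tested genes showed. The median log2 fold of the 4 tested members was 0.35, beside 0.00 for all tested genes.

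Divided by the length of their annotated exons in GENCODE 29 (GRCh38), the human members had an order of levels that held EPCAM first, at 2.66 ± 0.381 CPM per kilobase (SD over 6 libraries). KRT18 followed at 1.96 ± 0.535 and KRT8 at 1.82 ± 0.699. The ranges of these 3 genes over the libraries overlapped (EPCAM 2.37 to 3.37, KRT18 1.03 to 2.49, KRT8 0.688 to 2.69). The 3 genes were not compared library by library, and no test was made between them. KRT19 stood at 0.327 ± 0.204 CPM per kilobase. CDH1, at 0.0874 ± 0.0487, lay far under its neural counterpart CDH2 at 94.3 ± 5.85 CPM per kilobase, with no overlap between libraries. VIM, the intermediate filament gene of neural progenitors and mesenchyme, stood at 516 ± 70.6 CPM per kilobase. The deposited counts carry no record of isoforms, so the exon length is that of all isoforms together. That length was 6881 bases for KRT8 and 2519 for EPCAM. Before the division KRT8 was the higher, at 12.5 CPM on average against 6.71 for EPCAM, so their order depends on the length used.

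The basal and surface keratins were read almost entirely from KO 3. KRT5 (ENSG00000186081, chr12:52514575-52520687, minus strand), the type II keratin of basal cells, had 0, 4 and 0 counts in WT and 0, 0 and 70 in KO. KRT6A (ENSG00000205420, chr12:52487174-52493257, minus strand), a type II keratin of activated and mucosal epithelium, had 0 counts in all 3 WT libraries and 0, 1 and 81 in KO. KRT14 (ENSG00000186847, chr17:41582279-41586921, minus strand), the usual type I partner of KRT5, had 1 count, also in KO 3. KRT5 thus had 4 counts and KRT6A 1 count in the other 5 libraries together, and neither was tested.

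KRT6A has near-identical copies, KRT6B and KRT6C, whose coding sequences of 1692 bases are 97.5% and 97.9% identical to it. The stretch of 60 coding bases where the 3 genes differ most, in exon 2, is shown because reads over such positions tell the copies apart. Capitals mark the 9 positions at which the genes differ (coding bases 663 to 722, GENCODE 29, GRCh38, minus strand).
KRT6A (chr12:52491555-52491614): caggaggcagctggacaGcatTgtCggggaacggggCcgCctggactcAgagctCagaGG
KRT6B (chr12:52450439-52450498): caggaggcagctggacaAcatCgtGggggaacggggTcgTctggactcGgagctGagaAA
KRT6C (chr12:52472099-52472158): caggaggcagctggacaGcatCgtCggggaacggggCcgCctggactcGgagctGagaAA
In KO 3, 81 counts were assigned to KRT6A, 3 to KRT6B and 1 to KRT6C. Of the 50-base stretches in KRT6A transcripts, 32.1% also occur in another gene, most often KRT6C, so the split between the copies is uncertain. For KRT5 that share is 2.17%.

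Other genes of surface epithelia were high in the same library. Among 16 further keratins listed by symbol, 12 had a count in human, and 9 of these were highest in KO 3. The 9 include KRT6B and KRT6C, with 3 and 1 counts there and 0 elsewhere. They also include KRT10, present in every library, at 19.3 CPM in KO 3 and 19.2 in KO 1. The share of all genes that were highest in KO 3 is not given here, so the 9 are a description. KRT17, a type I keratin of activated and basal epithelium that shares sequence with KRT14 and KRT16, had 1, 5 and 1 counts in WT and 1, 1 and 139 in KO. KRT1, of the layers above the basal one, had 16 counts in KO 3, KRT16 10, KRT15 8 and KRT13 7, against at most 3 in any other library. Of the 6 desmosomal cadherins listed, DSG1 and DSG3 had 6 and 5 counts in KO 3 and at most 1 elsewhere, while the other 4 were not high there: DSG2, at 291 counts, was lowest in KO 3, DSC2 had 64 counts as in WT 3, DSC3 7 and DSC1 0.

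Over the whole human table, 8 genes had at least 20 counts in KO 3 and at least 5 times the count of any other library, a rule chosen after the values were seen. They were KRT17, KRT6A and KRT5, the calcium-binding protein genes S100A9 (107 counts) and S100A8 (46), the cornified envelope genes SPRR1B (52) and SPRR3 (27), and UNQ6494 (20). S100A9, S100A8, SPRR1B and SPRR3 had 0 counts in the other 5 libraries. The same rule found 1 gene in WT 2 and 0 in the other 4 human and all 6 mouse libraries. Several other epithelial genes were not high in KO 3: TP63 had 1 count there, KRT14 1 and GRHL2 0, while CDH1 had 8, against 3 to 14 elsewhere. The part of surface epithelial cells in these counts was not tested.

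**Figure D2:**
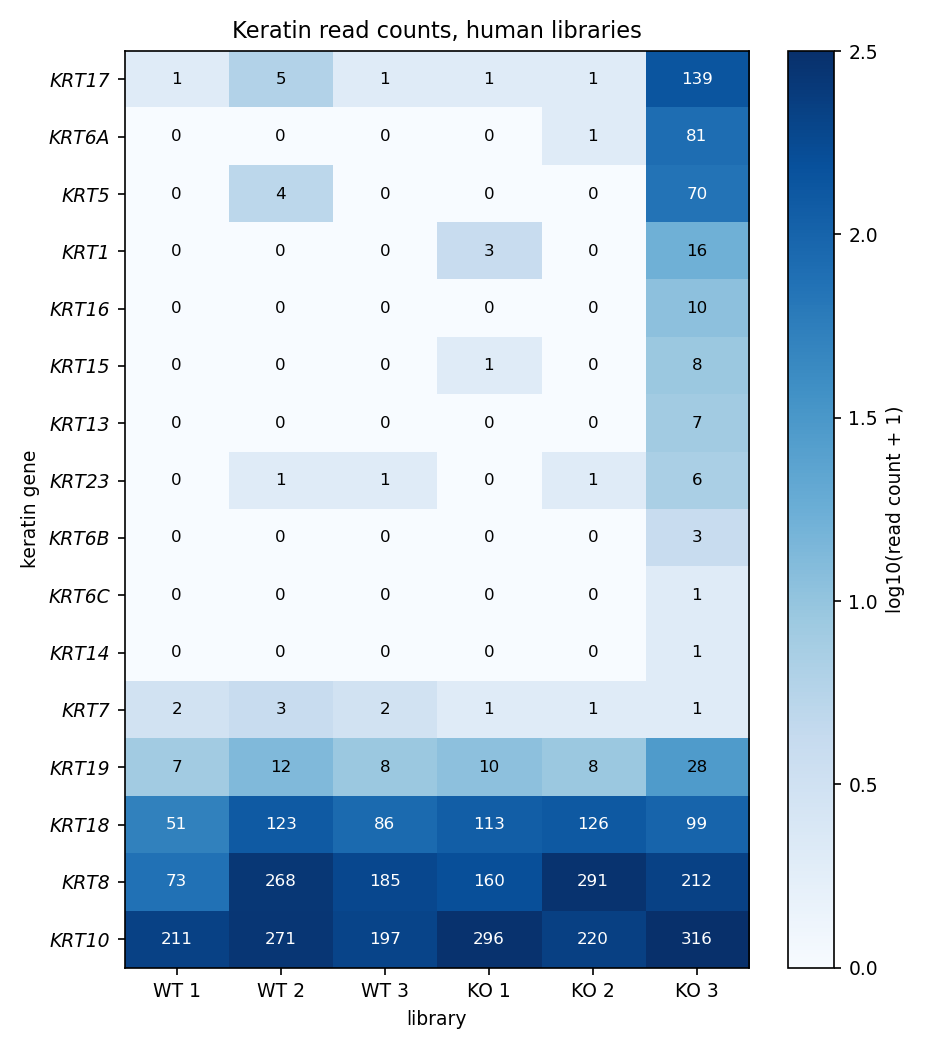
Read counts (numbers in the cells; shading is log10 of the count plus 1) of 16 keratin genes (rows) in the 6 human libraries (columns). The upper rows are near 0 except in KO 3, where KRT17 reaches 139 counts, and KRT8, KRT18 and KRT10 are present in every library.

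The library is named here after the column of raw counts. In the authors' normalized columns the values stand under the other label: KRT6A is 77 and KRT5 67 in the column labelled KO 1, and both are 0 in the column labelled KO 3. Either way the counts belong to 1 KO library.

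The bases upstream of KRT5 were searched on both strands for CAGGTG, bound by the epithelial repressors of the SNAI and ZEB families, and for AACCNGTT, bound by grainyhead-like factors such as GRHL2. RefSeq promoter sequences (GRCh38.p14) matched 2 of the 10 members, KRT5 and KRT8. In the 250 bases before the start, KRT5 held CAGGTG 1 time and AACCNGTT 0 times. These bases partly overlap an annotated KRT5 exon in GENCODE 29, and 3 of its 11 KRT5 transcripts start within 100 bases of the RefSeq start. CAGGTG occurred in 17.5% and AACCNGTT in 1.49% of 35116 such sequences. The 60 bases around the match (capitals), from base -160 to -101 before the start, are these.
KRT5 upstream (chr12:52520495-52520554, minus strand): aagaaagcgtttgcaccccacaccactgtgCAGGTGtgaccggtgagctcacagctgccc
The KRT8 sequence (chr12:52926470-52926719) held neither motif. It lies in an intron of KRT8, and 1 of the 17 KRT8 transcripts in GENCODE 29 starts within 100 bases of the RefSeq start.

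KRT8 and KRT18 varied together across the human libraries, and most tested genes of the choroid plexus, the secretory epithelium of the brain ventricles, had a like profile. Over 6 libraries, the Pearson correlation of log2 CPM was 0.914 between KRT18 and KRT8 (Spearman 0.829). For TTR (transthyretin), the main secreted protein of the choroid plexus, it was 0.931 with KRT8 (Spearman 0.886) and 0.865 with KRT18 (Spearman 0.829). These values rest on the extremes: without WT 1 and KO 2, they were 0.183, 0.461 and 0.0181. Over the 9 tested choroid plexus genes, the correlation with KRT8 ran from 0.597 (PRLR) to 0.963 (FOLR1), with AQP1 at 0.791. For OTX2 it was 0.902 with KRT8, and -0.298 without the same libraries.

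TTR had 3890, 34603 and 16466 counts in WT and 20305, 64774 and 56201 in KO. WT 1 was the lowest library for TTR as it was for both keratins. The summed level of 10 choroid plexus genes was 309 to 2387 CPM in WT and 1627 to 4667 CPM in KO. Of these genes 9 were tested and 0 called by edgeR or DESeq2, all 9 with a log2 fold above 0 and a median of 1.36. In 5 of the 10 (CLIC6, KCNJ13, HTR2C, OTX2 and SLC4A5) all KO libraries were above all WT libraries, as in 14.1% of tested genes. KCNJ13 was called without WT 1 (edgeR, adjusted p = 0.0277). KL, another choroid plexus gene, was near 0 with 0 to 4 counts. The endoderm markers SOX17 (0 counts), AFP (0 or 1) and GATA4 (0 or 1), whose cells can also make TTR, were at or near 0, while FOXA1 had 5 to 27 counts. The part of choroid plexus cells in the KRT8 and KRT18 counts was not tested. EPCAM went the other way, with a correlation of -0.664 with TTR (Spearman -0.371), and 0.629 without WT 1 and KO 2.

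**Figure D3:**
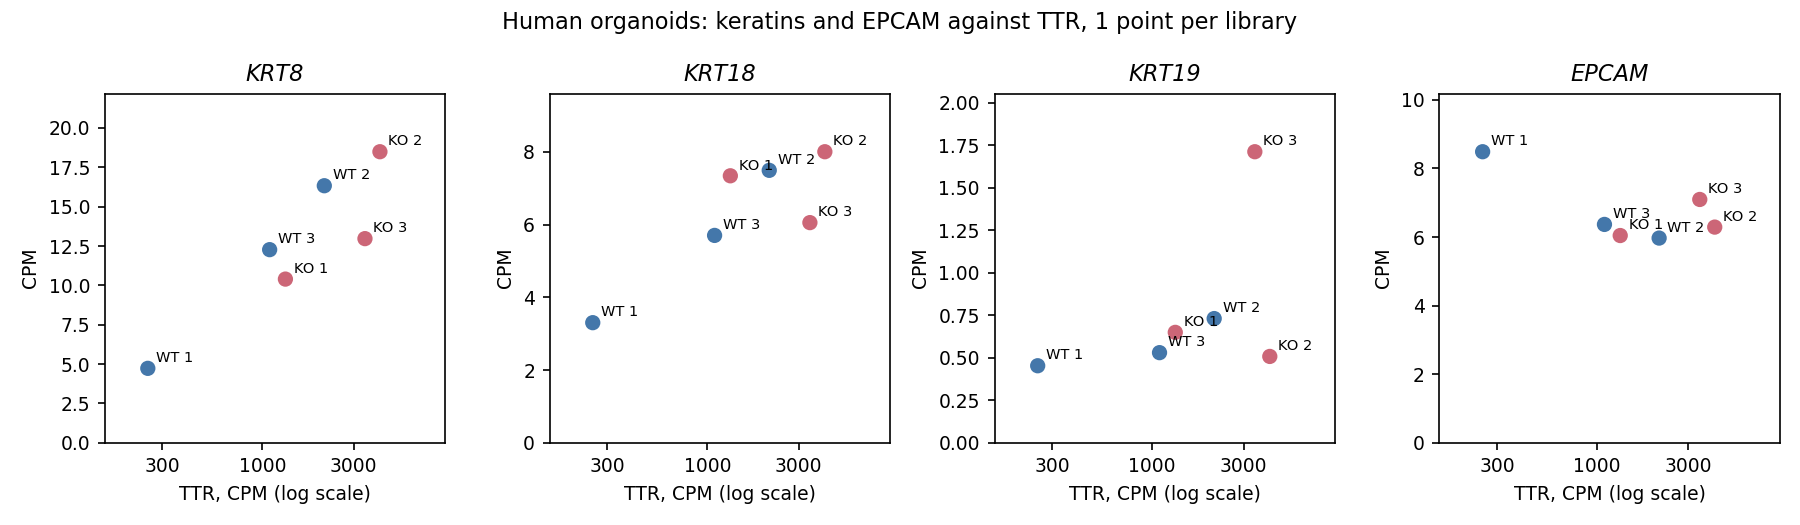
CPM of KRT8, KRT18, KRT19 and EPCAM (y axes, linear) against CPM of TTR (x axis, log scale), with 1 point per human library (blue WT, red KO). WT 1 is lowest for TTR, KRT8 and KRT18 and highest for EPCAM, and KO 3 stands out for KRT19.

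Among 12236 tested human genes with a mean of at least 5 CPM, those most like KRT8 over the 6 libraries were APLP2 (Pearson 0.995), BTBD11 (0.989), B4GALT7 (0.988), TM7SF2 (0.984) and CDC20B (0.980), the last a gene of multiciliated cells. CDC20B stood at 1.81, 11.8 and 6.83 CPM in WT and 5.00, 11.2 and 9.54 in KO. For EPCAM they were DROSHA (0.994), ETV6 (0.984), GLTP (0.983), CEP112 (0.978) and PDCL (0.977). The ranking uses 6 libraries and says nothing more than that these profiles have a like shape. Between 6 libraries many genes reach such values: 149 had a correlation over 0.9 with KRT8 and 54 with EPCAM.

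KRT8 and KRT18 lie on opposite strands and overlap over 1084 bases in GENCODE 29. The library protocol kept strand information, but the labels do not state whether counting used it. How reads from the overlap were assigned is therefore not known. The share counted as ambiguous between genes ran from 0.77% in EV 1 to 0.91% in N2NL 1 in mouse, and was not available in human. Of the 50-base stretches in their transcripts, 10.1% of KRT8's and 14.3% of KRT18's also occur in another gene, most often the pseudogenes KRT8P3 and KRT18P11. The count ratio of KRT8 to KRT18 was 1.42 to 2.31 in the human libraries and 1.38 to 1.59 in the mouse libraries.

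In mouse organoids at day 6 the simple-epithelium genes were abundant, and no member passed the test on group alone between N2NL and EV. The tables of the species were made separately and at different stages, and no test was made between them. Krt8 (ENSMUSG00000049382) had 13659, 11149 and 10047 counts in EV 1 to 3 and 14898, 6941 and 5750 in N2NL 1 to 3. Krt18 (ENSMUSG00000023043) had 9910, 7315 and 6615 counts in EV and 9388, 4821 and 4095 in N2NL. For both, the replicate 1 library was the highest of its group by a wide margin, and the groups overlapped. In CPM, Krt8 stood at 587 ± 135 in EV and 498 ± 214 in N2NL, and Krt18 at 403 ± 118 and 332 ± 119 (SD, n = 3 each). The log2 folds of N2NL over EV were -0.24 ± 0.36 and -0.28 ± 0.34 (edgeR quasi-likelihood, adjusted p = 0.938 and 0.911). They depended on the replicate 1 libraries: Krt8 was at -0.03 without EV 1 and -0.64 without N2NL 1, and Krt18 at -0.01 and -0.61. Without N2NL 3 they were -0.02 and -0.09.

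Krt19 (ENSMUSG00000020911) had 9375, 6610 and 5706 counts in EV and 7381, 3867 and 3430 in N2NL, or 367 ± 124 and 267 ± 88.4 CPM. N2NL 1, at 368 CPM, lay above EV 2 and EV 3, at 313 and 279 CPM, so the groups overlapped. Its log2 fold of -0.46 ± 0.35 did not pass in the fit on group alone (edgeR, adjusted p = 0.855). With a replicate block it was -0.46 ± 0.07 and was called (edgeR, adjusted p = 0.0375), as were 0.126% of tested genes. The labels do not state that same-numbered libraries are pairs. In the authors' deposited table, the adjusted p is 6.73e-06 for Krt19 and 0.0409 for Krt18 (model not given in the sources used here). Krt7 (ENSMUSG00000023039) had 3453, 2338 and 2190 counts in EV and 3108, 1676 and 1421 in N2NL, with a log2 fold of -0.26 ± 0.34 (edgeR, adjusted p = 0.917). Again both replicate 1 libraries were above the other 4. Without EV 1 and without N2NL 1, the log2 fold was -0.15 and -0.76 for Krt19 and 0.05 and -0.56 for Krt7.

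The junction genes spread less. Epcam (ENSMUSG00000045394) had 1019, 951 and 897 counts in EV and 1032, 699 and 641 in N2NL, and Cdh1 (ENSMUSG00000000303) had 1288, 1212 and 1137 in EV and 1370, 1029 and 1020 in N2NL. Grhl2 (ENSMUSG00000022286), at 0 in human, had 268, 196 and 187 counts in EV and 289, 186 and 176 in N2NL. Their log2 folds were -0.14 ± 0.12, 0.05 ± 0.10 and 0.13 ± 0.19 (edgeR, adjusted p = 0.868, 0.946 and 0.926), and the groups overlapped for all 3. Without EV 1 and without N2NL 1 these folds were -0.02 and -0.28 for Epcam, 0.16 and -0.01 for Cdh1, and 0.38 and -0.03 for Grhl2.

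The basal keratins were near 0 in mouse. Krt5 (ENSMUSG00000061527) had 4, 2 and 3 counts in EV and 2, 1 and 1 in N2NL. Krt14 (ENSMUSG00000045545) had 3, 9 and 2 counts in EV and 4, 3 and 4 in N2NL. Neither was tested, and no mouse library was high in them the way KO 3 was in human.

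**Figure D4:**
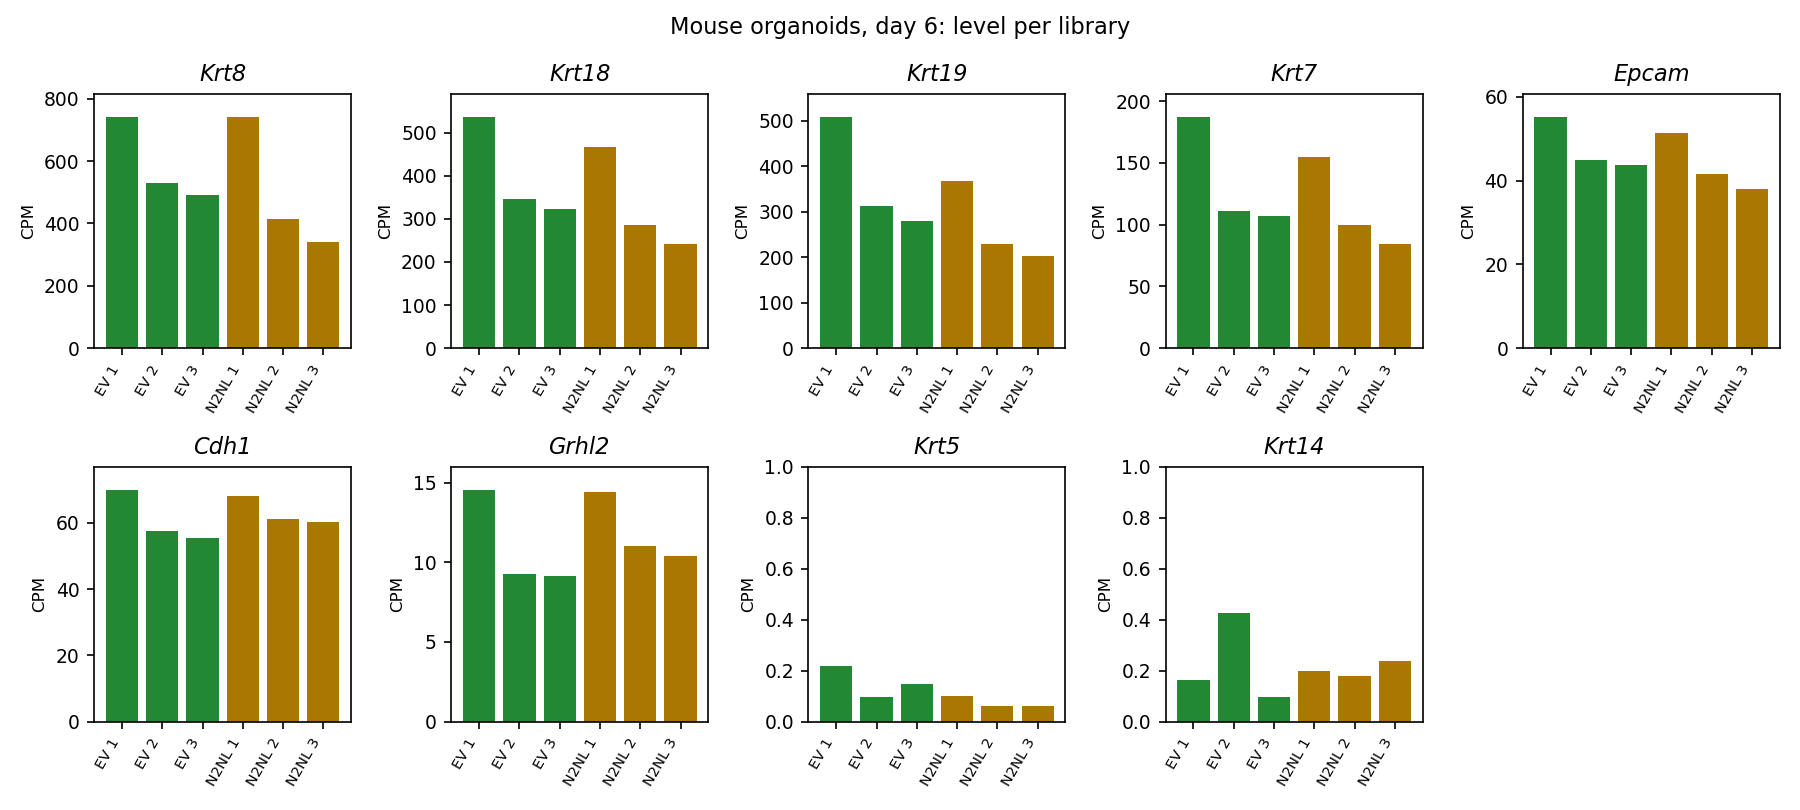
Level in CPM (y axis, linear, from 0) of the 9 matched mouse members in each library (x axis; green EV, brown N2NL, 1 bar per library). The EV 1 and N2NL 1 bars are the highest pair for Krt8, Krt18, Krt19, Krt7, Epcam, Cdh1 and Grhl2, and Krt5 and Krt14 stay under 0.5 CPM.

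Of the 9 mouse members 7 were tested and 0 were called in the fit on group alone. In that fit 0.012% of the 16682 tested genes were called by edgeR. At an unadjusted p under 0.05 the members' count was 0, and DESeq2 called 0. No member had groups that did not overlap, an arrangement that 12.7% of the tested genes showed. The median log2 fold of the 7 tested members was -0.235, beside -0.01 for all tested genes.

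**Figure D5:**
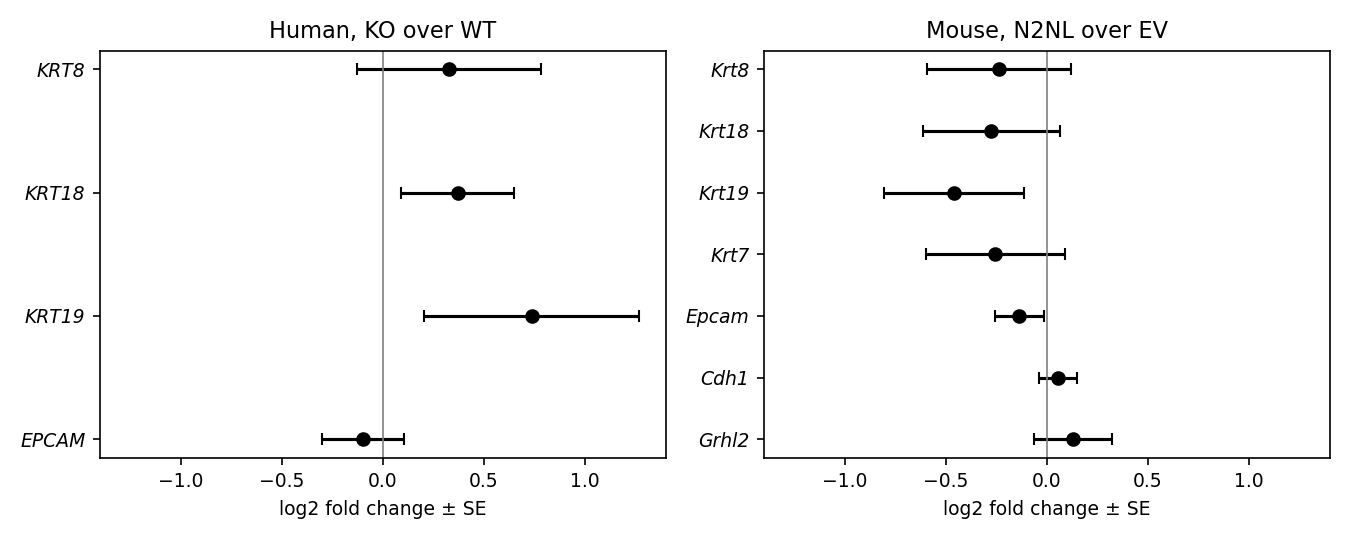
Log2 fold change ± SE (x axis) of the tested members (y axis) in human (left, KO over WT) and mouse (right, N2NL over EV), from edgeR fits over all tested genes; the vertical line is no change. No member passed an adjusted p of 0.05 in these fits on group alone, and KRT19 has the widest error in human.

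What set the mouse members apart from each other was how far they moved between libraries. From the lowest to the highest library the level changed 2.51-fold for Krt19, 2.23-fold for Krt7, 2.22-fold for Krt18 and 2.18-fold for Krt8. It changed 1.59-fold for Grhl2, 1.46-fold for Epcam and 1.26-fold for Cdh1. Over 6 libraries the Pearson correlation of log2 CPM with Krt8 was 0.985 for Krt18, 0.961 for Krt7, 0.947 for Krt19 and 0.983 for Epcam, and 0.670 for Cdh1 and 0.697 for Grhl2. Epcam therefore followed the keratins in shape with a smaller amplitude.

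In all 7 tested mouse members, EV 1 and N2NL 1 were above the other 4 libraries, as they were in 10.8% of all tested mouse genes. The other epithelial genes can be read the same way, from lists chosen with earlier results known. EV 1 and N2NL 1 were the highest pair for 11 of 17 tested desmosome and hemidesmosome genes, 10 of 21 epithelial regulators and membrane genes and 7 of 18 tight junction genes. They were so for 2 of 11 adherens junction genes and 0 of 6 repressors of epithelial genes. Jup (plakoglobin), which links desmosomal cadherins to keratin, stood at 257, 186 and 176 CPM in EV and 255, 160 and 140 in N2NL. Ctnnb1 (beta-catenin), which links classical cadherins to actin, stood at 1169, 1195 and 1179 CPM in EV and 1132, 1187 and 1217 in N2NL.

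Of the 6 tested trophoblast and amnion genes, 3 (Hand1, Gata2 and Gata3) had EV 1 and N2NL 1 above the other 4 libraries, as the keratins did. Over 6 libraries the Pearson correlation of these 6 genes with Krt8 ran from -0.59 (Igfbp3) to 0.926 (Gata2), with Cdx2 at 0.903 and Pgf at 0.734. The summed level of the 9 matched trophoblast and amnion genes was 179 to 280 CPM in EV and 176 to 283 CPM in N2NL, highest in both replicate 1 libraries. Hand1, a transcription factor of trophoblast giant cells and extraembryonic mesoderm, stood at 112, 66.6 and 57.2 CPM in EV and 121, 65.9 and 59.2 in N2NL. Gata2 and Gata3 were likewise highest in replicate 1, at 87.4 and 31.7 CPM in EV 1 and 86.8 and 26.7 CPM in N2NL 1. Of the 9 genes, Cga was at 0 in 4 libraries, Gabrp stayed under 0.3 CPM, and 6 were tested with 0 called by edgeR. The endoderm list summed to 10.0 to 13.8 CPM in EV and 11.5 to 13.3 CPM in N2NL. The part of trophoblast-type cells in the keratin counts was not tested.

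Among 11838 tested mouse genes with a mean of at least 5 CPM, those most like Krt8 were Elf3, an epithelial ETS factor (Pearson 0.997), heme oxygenase 1 (0.997), LPS-induced TN factor (0.997), gelsolin (0.996) and Jup (0.994). For Epcam they were lectin, galactose binding, soluble 1 (0.998), Prkr interacting protein 1 (0.997), the desmosomal plakophilin Pkp2 (0.997), tubby like protein 1 (0.996) and peroxisomal biogenesis factor 10 (0.996). Over the same 6 libraries, 474 genes had a correlation over 0.9 with Krt8 and 526 with Epcam.

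The other epithelial genes gave no edgeR call in either species. In human, 54 of the 98 symbols in 6 lists were tested and 0 were called by edgeR. At an unadjusted p under 0.05 there were 11, or 20.4%, beside 22.8% of all tested genes. DESeq2 called 2, of 1345 genes it called in all: the tight junction scaffold TJP3 was higher and the junctional adhesion molecule F11R lower in KO. TJP3 had 4, 17 and 7 counts in WT and 20, 42 and 44 in KO, with a log2 fold of 1.89 ± 0.50 (edgeR, adjusted p = 0.0544). F11R had 172, 111 and 93 counts in WT and 39, 90 and 59 in KO, with a log2 fold of -1.02 ± 0.33 (edgeR, adjusted p = 0.109). For both genes the groups did not overlap, as for 28.8% of tested genes. In mouse, 74 of the 92 matched genes were tested and 0 were called by edgeR or DESeq2. At an unadjusted p under 0.05 there were 7, or 9.46%, beside 7.45% of all tested genes.

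By list, the median human log2 fold was -0.04 for 14 tested desmosome and hemidesmosome genes, 0.14 for 14 tight junction genes, -0.02 for 11 adherens junction genes, 0.01 for 11 regulators and membrane genes and 0.20 for 3 repressors. In mouse these medians were -0.11 over 17 genes, -0.16 over 18, 0.01 over 11, 0.00 over 21 and 0.10 over 6. Of the other keratins, KRT10 alone was tested in each species, with log2 folds of 0.28 ± 0.17 in human and -0.10 ± 0.19 in mouse.

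By mean CPM, the leading pair of each list in human were the plakins DST and PLEC (166 and 114 CPM on average), the tight junction and polarity scaffolds PARD3 and TJP1 (TJP1 58.5), VIM and CDH2 (2663 and 467), TFAP2A and CXADR (59.4 and 48.4), and the repressors ZEB1 and ZEB2 (76.7 and 53.0). None of these 10 passed the test. VIM was lower in all KO than in all WT libraries, with a log2 fold of -0.30 ± 0.10 (edgeR, adjusted p = 0.121). In mouse the leading genes included Dst and Jup (233 and 196 CPM on average), Tjp1 (136), Ctnnb1 and Vim (1180 and 1109), Tfap2c and Prom1 (183 and 131), and Twist1 and Zeb1 (78.0 and 68.9). Krt10 and Krt1 led the mouse keratins outside the members, at 4.93 and 0.493 CPM, and KRT10 and KRT17 the human ones, at 16.0 and 1.51 CPM.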

How the data were processed

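The data are RNA-seq counts of polyadenylated RNA from 12 libraries, made with a strand-specific kit per the labels' protocols. The authors deposited raw read counts per Ensembl gene and their own comparison tables. DESeq2 2.11.39, HTSeq 0.6.1p1, STAR 2.4.0, Bowtie2 2.3.3.1 and Trimmomatic 0.36 are named, without roles, in the submitters' processing notes, with GRCh38 for human and GRCm38 for mouse. A strand option for counting was not given in the sources used here. Of the authors' deposited tables, the normalized values per library were treated as a score, and the log2 fold and adjusted p-value of members are printed as theirs. The human columns labelled replicate 1 and 3 hold each other's library in that table.

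Members and lists were chosen with earlier results of these data known. Mouse genes were matched by description (174 of 182 listed symbols). Each species was fitted over its whole table with edgeR 4.0.16 in R 4.3.3: filterByExpr, TMM, robust quasi-likelihood F test on group alone, Benjamini-Hochberg, called at an adjusted p under 0.05. The SE of a fold is approximate, from the fold and its F value. Correlations use log2 of CPM plus 0.5. Lines that name no gene were left out of totals. Replicates of a group differed by more than sampling noise. The fit was tested on simulated counts with known changes. Exact permutation of 3 against 3 libraries cannot go under 0.1 (two-sided). Named genes are all members; of each epithelial list, the genes called by a fit and the pair with the highest mean CPM; and the 5 genes most like EPCAM and the most abundant member. Some genes under this rule are not reported here. DESeq2 1.42.0, other filters and scalings, a replicate block and leaving out each library were tried.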

Additional observations from a re-analysis of the deposited data

How the results depend on the processing

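Counts of called genes moved with the setting. In human 932 genes were called by edgeR, 2155 with no filter on low counts, and 224 to 1440 when each library was left out in turn (leaving out WT 1, 2 and 3 gave 1440, 499 and 224, and leaving out KO 1, 2 and 3 gave 251, 506 and 526). Of the 6 epithelial lists 0 genes were called in human, 2 by DESeq2, 7 with no filter on low counts (TJP3, F11R, CLDN1, CLDN10, PROM1, VIM and KRT1) and 0 to 3 with each library left out. In mouse 2 genes were called, 26 by DESeq2, 117 with no filter, 1 without robust estimation and 0 to 17 with each library left out; of the epithelial lists 0 were called under every setting run. The cause was not tested. Over all tested genes, same-numbered libraries did not all deviate together (correlations of replicates 1 to 3 0.241, -0.141 and 0.148 in human, 0.185, 0.034 and -0.012 in mouse), so the numbers were not taken as a pairing. The replicate 1 libraries had the highest same-number value in each species. In human the unlike-numbered WT 2 and KO 3 stood higher, at 0.32, and WT 1 and KO 2 were at 0.189. The highest unlike-numbered value in mouse was 0.143, for EV 3 and N2NL 2. With a replicate block, 899 human and 21 mouse genes were called, and 1 gene of the epithelial lists in human (TJP3); of the choroid plexus genes, KCNJ13 and SLC4A5 were called with it (adjusted p = 0.0452 and 0.0145). Among members, Krt19 alone was called with the block (adjusted p = 0.0375, against 0.320 to 1.00 under its 10 other alternatives). No other member was called under any of the 11 alternatives. Low counts limit KRT7, CDH1, KRT14 and GRHL2 in human and Krt5 and Krt14 in mouse, where a difference could be missed at this depth. With no filter on low counts none of these was called. That setting did call KRT1, with 19 counts in all, fewer than the 51 of CDH1.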

Other observations

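TFAP2A, a transcription factor of surface ectoderm and neural crest and the highest epithelial regulator by CPM in human, had 616, 1958 and 1374 counts in WT and 540, 314 and 838 in KO. Its relative TFAP2B had 900, 3241 and 2028 counts in WT and 759, 452 and 1254 in KO. In both genes WT 2 was the highest and KO 2 the lowest library, and neither passed the test (edgeR). PAX8, of the same placode and surface ectoderm list as TFAP2B, had 490, 846 and 522 counts in WT and 148, 98 and 219 in KO, and was the called gene of that list (log2 fold -2.01 ± 0.31, edgeR, adjusted p = 0.0162). Leaving out either WT 3 or KO 1 ended this call, as did the replicate block (edgeR, adjusted p = 0.0644). KRT8 and KRT18 had their highest counts in KO 2. GATA3, which marks trophoblast and surface ectoderm, had 6, 1 and 5 counts in WT and 0 in all 3 KO libraries, and was not tested.

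The processed pseudogenes of KRT8 held counts that varied less between libraries than those of their parent, and both were highest in KO 2. In human, 16 of 50 KRT8 pseudogenes had a count, and together they had 131, 137 and 129 counts in WT and 122, 151 and 144 in KO, while KRT8 itself ran from 73 to 291. KRT8P12 alone had 102, 99 and 98 counts in WT and 100, 114 and 97 in KO. For KRT18, 23 of 67 pseudogenes had a count, with sums of 14, 25 and 14 in WT and 39, 29 and 18 in KO. All 5 KRT19 pseudogenes were at 0.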
